A study of Mus musculus with 6 samples.

Results

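The genes of steroid hormone metabolism followed here in the epidermis of newborn mice were Star, Cyp11a1, Hsd3b1, Hsd3b2, Hsd3b6, Hsd3b7, Hsd17b2, Srd5a1, Akr1c18 and Hsd11b1. They were chosen by name, as dehydrogenases, reductases and side-chain cleavage genes of steroids, with results of the comparison of AhRCA with WT mice already known, so their differences between the genotypes are given as a description, without a test. All 10 had a probe on the array, 13 probes in all, among 18217 genes that could be named, and 9 of the 10 were among the 12824 genes measured well enough to be tested. In AhRCA mice the keratin 14 promoter, active in basal keratinocytes, drove an aryl hydrocarbon receptor (AhR) that is always active; the normal receptor is switched on by ligands such as dioxins and then controls transcription. WT mice were their wild-type littermates. Both genotypes were of mixed strain and sampled at postnatal day 0, each sample was RNA from 1 mouse, and each of 3 samplings paired 1 AhRCA mouse with 1 WT littermate.

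Steroid hormones are made from cholesterol, which Star passes into mitochondria, where the P450 enzyme of Cyp11a1 cuts off the side chain to give pregnenolone. Enzymes of the Hsd3b family turn pregnenolone and related precursors into progesterone and other active steroids, and further reductases and dehydrogenases activate or inactivate the hormones within target tissues. Skin is known as a tissue that both makes and converts steroids, with sebaceous glands and keratinocytes among the sites.

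Values come from 1-colour Agilent arrays, 1 per mouse, and are log2 intensities relative to the 75th percentile of the array, which stands at 0. A probe was counted as measured where the scanner software called its spot well above background, which was so for 56.2% to 61.3% of spots; 0 spots were saturated, and the number of arrays, 3 per genotype, limited the precision. The keratinocyte markers Krt5, Krt14, Krt1, Krt10, Trp63, Dsg3, Lor and Ivl were well above background on all 6 arrays, and 0 of these 8 changed between the genotypes. Cyp1a1, the classical target of AhR, stood at -3.96, -3.03 and -2.18 in WT and at 3.32, 3.68 and 5.04 in AhRCA. The Ahr probe itself stood between 2.21 and 2.32 in WT and between 1.76 and 1.83 in AhRCA; whether it reads the transgene is not known here, so it checks nothing about the labels. Slide 1 held replicates 1 and 2 of each genotype, and slide 2 held replicate 3 of each. The Y-linked gene Ddx3y was well above background on the 2 arrays of slide 2 and on 0 of the 4 arrays of slide 1, so slide, litter pair 3 and sex coincided and cannot be told apart.

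By the brightest probes, Hsd3b2, Hsd3b6 and Akr1c18 stood at or near the background in AhRCA epidermis and were clearly measured in WT. Hsd11b1 was lower in AhRCA on every array, and the other 5 measured members differed by between -0.29 and 0.37 on the log2 scale. In whole epidermis fewer cells of a type and less RNA per cell cannot be told apart. To set the regulatory sequence beside these values, the 250 bases before the RefSeq start site are shown for the 4 genes that were lower and for Srd5a1, whose groups overlapped. Capitals mark GCGTG, the core of the element that AhR and its partner Arnt bind, on either strand (on the other strand it reads CACGC).
Hsd3b2 (GRCm38.p6, chr3:98724544-98724793, strand -): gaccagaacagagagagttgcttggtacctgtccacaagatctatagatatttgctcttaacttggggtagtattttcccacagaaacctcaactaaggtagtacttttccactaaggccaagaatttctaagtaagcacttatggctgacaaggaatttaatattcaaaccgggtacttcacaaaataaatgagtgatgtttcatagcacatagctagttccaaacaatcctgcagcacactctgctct
Hsd3b6 (GRCm38.p6, chr3:98814444-98814693, strand -): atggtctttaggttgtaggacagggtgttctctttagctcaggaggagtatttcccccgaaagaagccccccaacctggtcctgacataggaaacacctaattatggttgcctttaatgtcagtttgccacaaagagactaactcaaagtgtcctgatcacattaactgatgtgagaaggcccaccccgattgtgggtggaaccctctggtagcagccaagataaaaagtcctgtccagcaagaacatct
Akr1c18 (GRCm38.p6, chr13:4150647-4150896, strand -): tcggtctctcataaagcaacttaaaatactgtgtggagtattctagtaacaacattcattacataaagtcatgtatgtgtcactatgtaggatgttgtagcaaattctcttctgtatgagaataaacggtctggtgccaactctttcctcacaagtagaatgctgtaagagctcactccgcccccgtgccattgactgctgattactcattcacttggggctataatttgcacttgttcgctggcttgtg
Hsd11b1 (GRCm38.p6, chr1:193242361-193242610, strand -): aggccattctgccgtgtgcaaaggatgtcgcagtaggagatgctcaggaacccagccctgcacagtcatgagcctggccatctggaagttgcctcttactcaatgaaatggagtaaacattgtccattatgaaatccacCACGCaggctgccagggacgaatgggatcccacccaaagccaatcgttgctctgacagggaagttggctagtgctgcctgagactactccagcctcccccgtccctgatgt
Srd5a1 (GRCm38.p6, chr13:69611464-69611713, strand -): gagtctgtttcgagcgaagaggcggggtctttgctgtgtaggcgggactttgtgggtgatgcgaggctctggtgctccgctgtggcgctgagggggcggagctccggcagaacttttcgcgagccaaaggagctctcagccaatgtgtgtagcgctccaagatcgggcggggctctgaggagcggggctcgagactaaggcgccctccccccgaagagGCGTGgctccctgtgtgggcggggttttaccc
The pentamer GCGTG was found 111 bases before the start of Hsd11b1, on the other strand, and 32 bases before the start of Srd5a1, on the gene strand. It was not found in the windows of Hsd3b2, Hsd3b6 and Akr1c18, and 28.2% of 32851 such windows in the RefSeq table held it. On either strand, neither AGGTCA nor TATAAA was found in any of the 5 windows. AGGTCA, a half-site of many nuclear receptors, was in 14.0% of all windows, and TATAAA in 12.4%. A match is a description of the letters and not of binding, and no match says only that these letters are not in this window. Besides these 5, the promoter table held windows for Hsd3b1, Hsd3b7 and Cyp11a1, and GCGTG was in 0 of these; the window of a second start of Cyp11a1 held AGGTCA, 28 bases before that start. Of the other genes of the Hsd3b cluster with windows, Hsd3b3, Hsd3b4 and Hsd3b5, only Hsd3b5 held GCGTG, 79 bases before its start on the gene strand.

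Of the early steps, neither Star nor Cyp11a1 fell below background in AhRCA. Star stood at -4.06, -3.97 and -3.74 in WT and at -3.59, -3.53 and -3.55 in AhRCA. The 3 AhRCA arrays were all slightly above the 3 WT arrays, by 0.37 ± 0.10 on the log2 scale (SE, n = 3 per group), and Star was the only member whose groups did not overlap with AhRCA on the higher side, as held for 7.52% of all genes tested. Its other probe, close to the background, had a difference of 0.04 ± 0.20. With normexp background correction the difference of the brighter probe was 0.21, and with the mean of both probes 0.20.

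Cyp11a1 stood at -1.86, -1.07 and -1.32 in WT and at -1.68, -1.61 and -1.82 in AhRCA. The groups overlapped, with the WT arrays the more scattered, and the difference was -0.29 ± 0.24. Its other probe gave -0.24 ± 0.29.

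**Figure D1:**
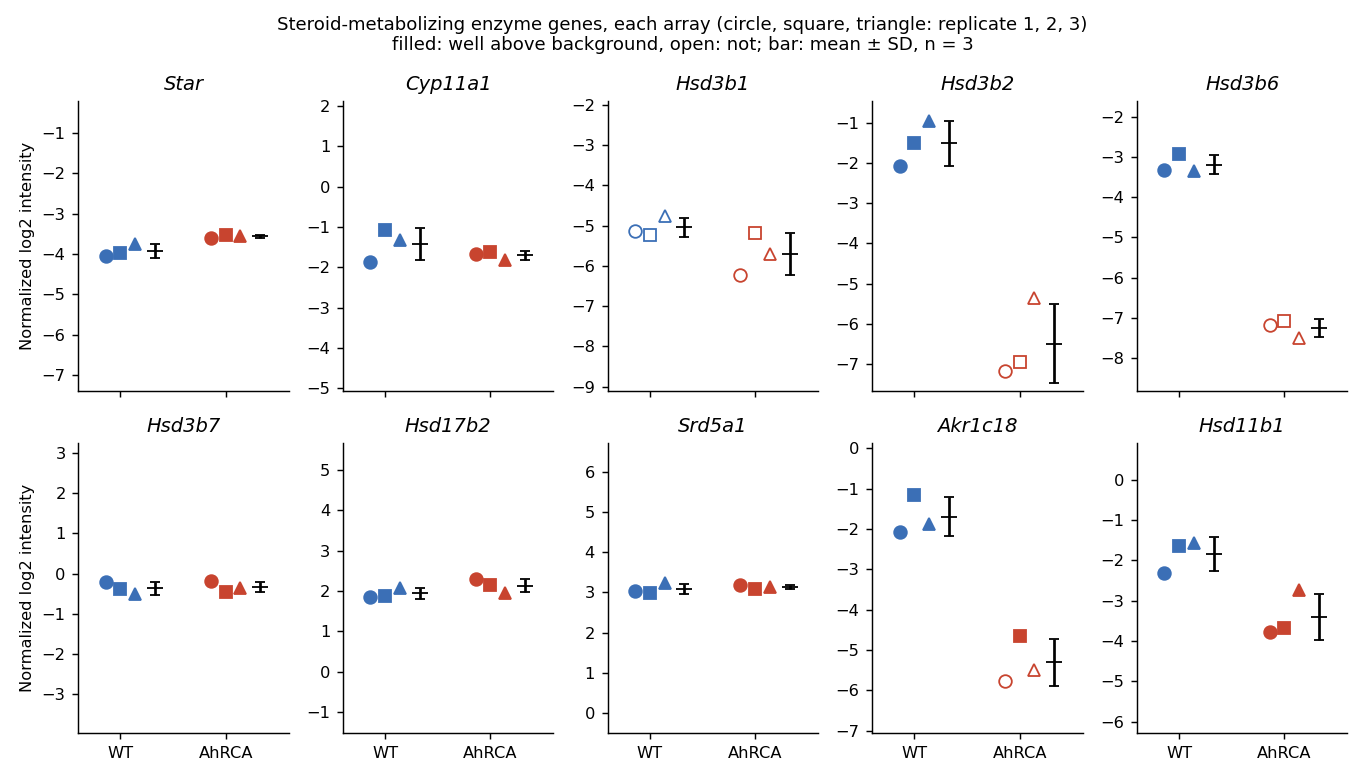
Normalized log2 intensity (y axis; 0 is the 75th percentile of the array, and each panel has its own range) of the 10 genes on the 3 WT and 3 AhRCA arrays, with the brightest probe of each gene. Filled points are well above background and open points are not; bars show mean ± SD, n = 3. Hsd3b2 and Hsd3b6 are filled on 3 WT arrays and open on 3 AhRCA arrays, while Hsd3b7, Hsd17b2 and Srd5a1 overlap between the genotypes.

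The next step belongs to the 3β-hydroxysteroid dehydrogenases, which take pregnenolone to progesterone. By its brighter probe Hsd3b2 stood at -2.09, -1.49 and -0.95 in WT and at -7.17, -6.95 and -5.35 in AhRCA. All 3 WT arrays were well above background and 0 of 3 AhRCA arrays were, with scanner signals of 171, 239 and 370 in WT against 4.8, 5.1 and 18.5. The level in AhRCA is therefore only a bound, and by this probe Hsd3b2 was nominally at least 11.2-fold lower. This bound sets the mean of WT against the higher of each AhRCA array's dimmest well-measured signal and the probe's own value. It is no strict minimum, since a spot not well above background can be brighter than that dimmest signal. Hsd3b1, for example, stood at -4.77 on the array of WT replicate 3, against -4.81 for its dimmest well-measured signal. For Hsd3b2 the measured log2 difference was -4.98 ± 0.66 (SE, n = 3 per group) before any offset. It was -1.95 with normexp background correction, which adds an offset of 50 to every signal. The other probe of Hsd3b2 was well above background on 1 WT and 1 AhRCA array, so it was not measured in most samples and showed no such pattern, with a difference of 0.47 ± 1.57.

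Hsd3b6 stood at -3.33, -2.93 and -3.35 in WT and at -7.17, -7.08 and -7.49 in AhRCA. Again the 3 WT arrays were well above background and 0 of 3 AhRCA arrays were. Its scanner signals in WT lay between 70.3 and 88.2, and by the same nominal bound Hsd3b6 was at least 3.45-fold lower in AhRCA. The measured log2 difference was -4.05 ± 0.18, and -0.999 with normexp. Hsd3b1 was not well above background on any of the 6 arrays, at -5.13, -5.23 and -4.77 in WT and -6.24, -5.19 and -5.70 in AhRCA, so no difference can be read from it.

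Hsd3b7, the member of the family that acts on oxysterols in bile acid synthesis rather than on hormone precursors, was measured on all 6 arrays. It stood at -0.21, -0.38 and -0.52 in WT and at -0.19, -0.45 and -0.35 in AhRCA. The groups overlapped fully, with a difference of 0.03 ± 0.12.

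In the GRCm38.p6 annotation Hsd3b2, Hsd3b6 and Hsd3b1 lie side by side on chromosome 3 with Hsd3b3 between the first pair, in a run of 7 protein-coding genes that also holds Hsd3b4, Gm10681 and Hsd3b5, whereas Hsd3b7 lies alone on chromosome 7. Of the further genes of the cluster Hsd3b4 was measured on all 6 arrays, at a difference of -0.16 ± 0.24 on the log2 scale (SE from limma, whose Benjamini-Hochberg adjusted p was 0.995). Hsd3b3 and Hsd3b5 were well above background on fewer than 3 arrays. Probe sequences were not used here, so how far a probe of one Hsd3b gene reads another was not tested. The 250-base windows of Hsd3b1, Hsd3b2 and Hsd3b6 had pairwise identities of 49.3% to 50.2% in a gapped global alignment, against 47.1% to 50.5% between each of them and the windows of Hsd3b7 and Akr1c18.

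Akr1c18, the 20α-hydroxysteroid dehydrogenase that inactivates progesterone, stood at -2.07, -1.15 and -1.87 in WT and at -5.77, -4.66 and -5.50 in AhRCA. The groups were far apart, and 1 of 3 AhRCA arrays, replicate 2, was still well above background. With 2 of 3 AhRCA arrays not well above background the difference, -3.61 ± 0.43 and -1.72 with normexp, is no measured fold. Scanner signals were 173, 303 and 195 in WT against 12.5, 24.8 and 16.6 in AhRCA.

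Hsd11b1, which regenerates active glucocorticoid from its inactive keto form, was measured on all 6 arrays. It stood at -2.32, -1.63 and -1.57 in WT and at -3.79, -3.69 and -2.74 in AhRCA. The groups did not overlap, with AhRCA replicate 3 the nearest to WT. The difference was -1.56 ± 0.41, a ratio of 2.96, and -0.94 with normexp.

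Hsd17b2, which oxidizes estradiol and testosterone to weaker forms, stood at 1.86, 1.88 and 2.09 in WT and at 2.30, 2.14 and 1.96 in AhRCA. The groups overlapped, with a difference of 0.19 ± 0.12. Srd5a1, the steroid 5α-reductase that turns testosterone into dihydrotestosterone, stood at 3.04, 2.99 and 3.24 in WT and at 3.19, 3.08 and 3.14 in AhRCA. The groups overlapped, and the difference was 0.05 ± 0.08.

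**Figure D2:**
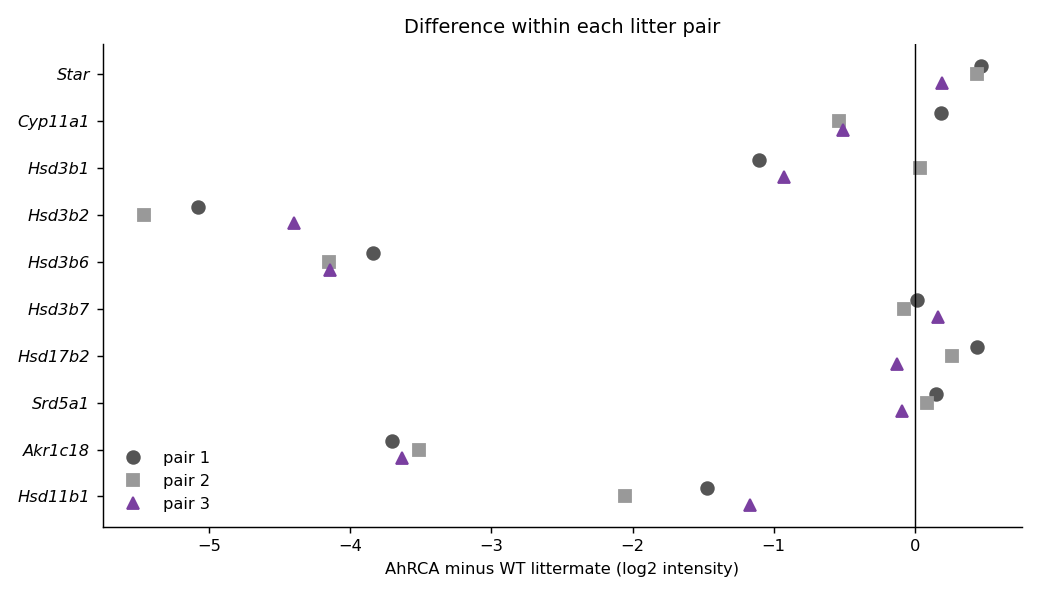
Difference between the AhRCA mouse and its WT littermate in normalized log2 intensity (x axis) for the brightest probe of each of the 10 genes (y axis), by litter pair. Hsd3b2, Hsd3b6, Akr1c18 and Hsd11b1 lie left of 0 in all 3 pairs; the differences of Hsd3b2, Hsd3b6 and Akr1c18 include AhRCA values not well above background.

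Within litter pairs, by the brightest probes, the same 4 genes were lower in the AhRCA mouse each time. By the other probe of Hsd3b2, well above background on 1 WT and 1 AhRCA array, the differences were 1.87, 3.31 and -3.76. By its brighter probe they were -5.08, -5.46 and -4.40 in pairs 1, 2 and 3. For Akr1c18 they were -3.70, -3.51 and -3.63. The AhRCA mice were not well above background for Hsd3b2 in any pair and for Akr1c18 in pairs 1 and 3, so the spread of these differences over pairs cannot be read. For Hsd11b1, measured in every mouse, they were -1.47, -2.05 and -1.17. Hsd17b2 was higher in AhRCA by 0.44 and 0.27 in pairs 1 and 2 and lower by a difference of -0.13 in pair 3.

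Of all genes tested 2.18% passed an adjusted p of 0.05 in the comparison of AhRCA with WT (limma, Benjamini-Hochberg), 1.65% on the lower side. Among the 9 tested members 3 passed, Hsd3b2, Hsd3b6 and Akr1c18, all lower in AhRCA, and 4 of 10 had groups without overlap on the lower side, as held for 8.84% of all genes. Nothing is read from these counts, since the members were chosen with this comparison known, and Hsd3b2 and Hsd3b6 entered the test through their WT arrays alone. Hsd11b1 passed as well when litter pair or slide was a block, under median scaling and without AhRCA replicate 3; with litter pairs as a block 497 genes passed in all, against 279. Without AhRCA replicate 2 Hsd3b2 did not pass, and on slide 1 alone Akr1c18 did not.

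Summed signals of sebaceous gland and hair follicle markers were lower in AhRCA, the same direction as the 4 lower members. Of 13 sebocyte markers on the array 10 were well above background on all 6 arrays and 12 were tested, of which 7 fell and 0 rose. All 12 had a negative log2 fold change, and their median was -1.16. The summed signal of the 13 markers, each divided by the 75th percentile of the array, is weighted toward the brightest of them. It was between 250 and 287 in WT and between 195 and 227 in AhRCA. Mc5r was not well above background on any array. All 10 hair follicle markers were measured on all 6 arrays, and 1 of them fell. Only 7 of these 10 had a negative log2 fold change, and their median was -0.30. Their summed signal, in which the brightest markers weigh most, was between 181 and 337 in WT and between 89.8 and 143 in AhRCA. The 6 adipocyte markers summed to between 1.75 and 2.63 in WT and between 0.859 and 1.92 in AhRCA, with 0 of 3 tested past the threshold and Adipoq below the scanner's limit in all 3 AhRCA samples. The part of these cells in the lower levels of Hsd3b2, Hsd3b6, Akr1c18 and Hsd11b1 was not tested.

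Markers of other cells overlapped or nearly met between the genotypes. The 7 fibroblast markers summed to between 18.2 and 25.5 in WT and between 19.2 and 19.4 in AhRCA, with Pdgfra and Dpt not well above background on any array. The 5 markers of macrophages and Langerhans cells on the array summed to between 8.98 and 11.2 in WT and between 8.04 and 9.01 in AhRCA; 1 rose and 1 fell, and Cd207 was below that limit in all 3 AhRCA samples. The 3 melanocyte markers on the array summed to between 58.5 and 85.2 in WT and between 66.2 and 79.8 in AhRCA. Of these, 2 were well above background on all 6 arrays, and Tyr was not on any AhRCA array. Of the 4 endothelial markers 3, Pecam1, Cdh5 and Kdr, were not well above background on any array.

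**Figure D3:**
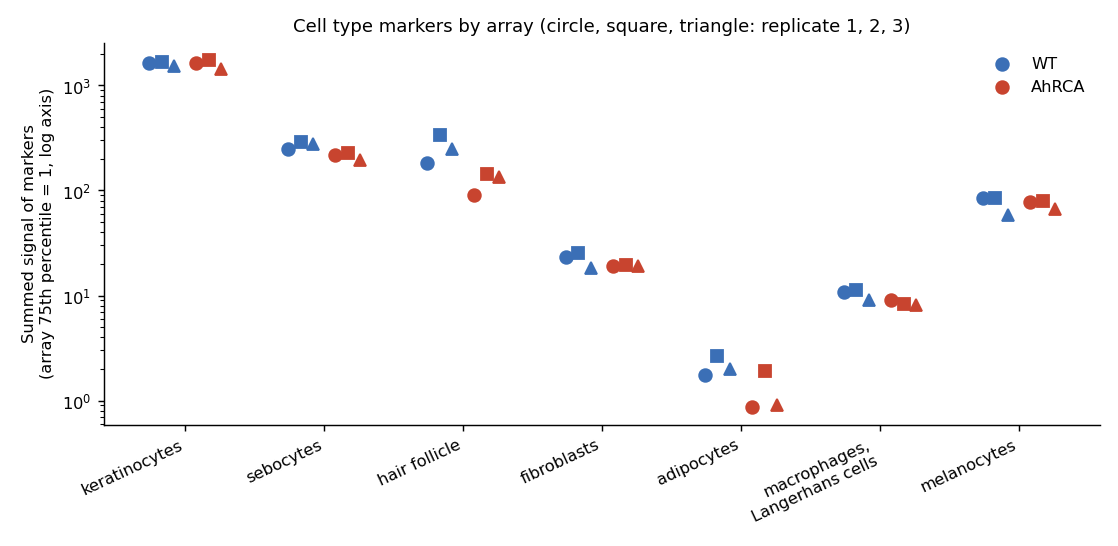
Summed signal of the markers of each cell type on each array (y axis, log scale, in units of the 75th percentile of the array), for WT and AhRCA. Endothelial markers, nearly all below background, are left out. Sebocyte and hair follicle sums are lower on each AhRCA array than on any WT array, and keratinocyte sums overlap.

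The other genes of the pathway give the setting in which these members lie. Of 112 further genes in 9 lists 100 had a probe and 64 were tested; 1 fell, against 2.18% of all genes tested that passed in either direction, and 0 rose. An unadjusted p under 0.05 was reached by 14 of the 64 and by 12.2% of all genes tested (limma). Their median log2 fold change was -0.01, against 0.00 over all genes tested. The estrogen and progesterone receptor genes Esr1, Esr2 and Pgr, the aromatase gene Cyp19a1 and Hsd11b2, which inactivates glucocorticoid, were well above background on fewer than 3 arrays and were not tested.

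The gene that fell was Ugt1a1, which joins glucuronic acid to bilirubin and to steroids such as estradiol. It stood at -1.33, -1.48 and -1.24 in WT and at -2.29, -2.73 and -2.26 in AhRCA. This is a fall by 1.07 ± 0.16 on the log2 scale (limma's SE, n = 3 per group, with an adjusted p of 0.0271 after Benjamini-Hochberg). It fell in all 3 pairs, and its adjusted p was 0.0157 when litter pairs were a block. This call was lost without any 1 of the 6 arrays (adjusted p between 0.0560 and 0.0911), on slide 1 alone (0.0904) and without the filter on dim probes (0.0679). Genes of the Ugt1a locus share exons, so a probe can read several of them. None of the other 5 tested genes of this list, all of conjugation, passed. No probe was matched to Sts, the steroid sulfatase gene, so sulfate removal was not tested. With Ugt1a1 included, 3 genes of the list had an unadjusted p under 0.05 (limma).

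Cofactor partners and neighbouring steps did not pass. Here and below the log2 fold change with limma's SE is followed by its adjusted p in parentheses. H6pd, which supplies the NADPH that Hsd11b1 uses, was at -0.59 ± 0.17 (adjusted p = 0.191) and Hsd17b11 at 0.46 ± 0.14 (0.209). Of the further 17β- and 11β-hydroxysteroid dehydrogenase genes and partners 0 of 9 tested passed, and 3 had an unadjusted p under 0.05. Of 11 genes of cholesterol supply and electron transfer 0 passed and 1 had an unadjusted p under 0.05, with the largest differences in Cyb5a, cytochrome b5, at 0.28 ± 0.11 (0.342) and Fdx1, the ferredoxin that feeds electrons to Cyp11a1, at 0.17 ± 0.11 (0.725). Cyp17a1, which leads from progesterone to androgens, was the only further P450 of the pathway to be tested, at 0.04 ± 0.13 (0.999).

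Among other 3β-hydroxysteroid dehydrogenase genes 0 of 3 passed and 1 had an unadjusted p under 0.05. This was Nsdhl, which acts in cholesterol synthesis, at -0.43 ± 0.12 (adjusted p = 0.165). Of 6 further reductases 0 passed and 2 had an unadjusted p under 0.05, Akr1d1, the 5β-reductase, at 1.12 ± 0.34 (0.200) and measured on 1 WT and 2 AhRCA arrays, and Rdh16 at -0.91 ± 0.26 (0.174) and measured on 3 WT and 0 AhRCA arrays. Among the other Akr1c genes with a probe, Akr1c21 alone was tested, at -0.02 ± 0.56 (0.999). Of 8 genes of the oxysterol and bile acid branch, to which Hsd3b7 belongs, 0 passed and 0 had an unadjusted p under 0.05; the largest values were those of Gpr183, an oxysterol receptor, at 0.36 ± 0.18 (0.554) and Cyp46a1 at -0.29 ± 0.41 (0.989).

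Of 9 tested receptors and regulators of steroidogenesis 0 passed and 3 had an unadjusted p under 0.05. These were Gata6, Nr3c1 at 0.33 ± 0.11 (adjusted p = 0.231, limma) and Creb1 at 0.32 ± 0.12 (0.332). Gata6, a transcription factor known from steroidogenic tissue and from the sebaceous duct, stood at -1.33, -1.26 and -1.30 in WT and at -2.77, -2.74 and -1.97 in AhRCA. Its log2 fold change of -1.20 ± 0.22 lay just outside the threshold (adjusted p = 0.0543 by limma), also with the litter pair as a block (0.0519), and passed with the slide as a block (0.0306) and without AhRCA replicate 3 (0.0112), the array nearest to WT. Gper1, a membrane receptor for estrogen, had 0.53 ± 0.51 (0.922). Of 11 genes known to respond to glucocorticoid 0 passed and 1 had an unadjusted p under 0.05, with 0.83 ± 0.26 for Klf9 (0.224) and 0.67 ± 0.36 for Fkbp5 (0.605). Their median was 0.19, and 4 of the 11 had negative values.

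**Figure D4:**
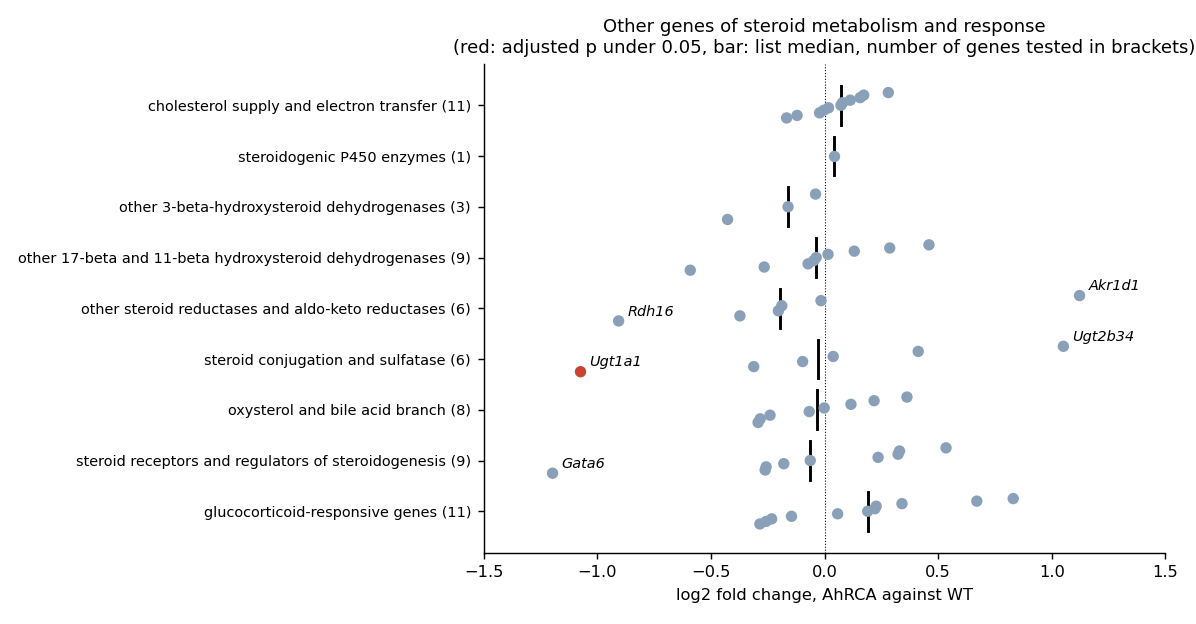
Log2 fold change of AhRCA against WT (x axis) for 64 tested genes of steroid metabolism and response in 9 lists (y axis, with the number tested); bars are list medians. Ugt1a1, at -1.07, is the gene past the adjusted p of 0.05; Gata6 lies lower, at -1.20, and misses it.

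The slides give a comparison that the choice of members did not use. With the genotype in the model, 14.5% of all genes tested differed between slide 2 and slide 1 (limma, Benjamini-Hochberg), and 1 of 9 tested members passed. For Hsd3b2 slide 2 exceeded slide 1 by a log2 difference of 1.27 ± 0.26 (adjusted p = 0.0384, limma), in WT with -0.95 against -2.09 and -1.49, and in AhRCA at 3 values that were not well above background. Apart from those the p rests on 1 WT array against 2, so no change of Hsd3b2 between slides is read from it. The call was lost with normexp background correction (0.131), without the filter on dim probes (0.0827) and when any array other than WT replicate 2 was left out (0.0835 to 0.160). Hsd11b1 had 0.70 ± 0.23 in the same direction (adjusted p = 0.101), and these 2 of 9 members had an unadjusted p under 0.05, as did 35.0% of all genes; Hsd11b1 passed without WT replicate 2 (adjusted p = 0.0426). The other 7 lay between -0.29 and 0.14, of which Hsd3b6, with -0.29 ± 0.13 (adjusted p = 0.191) and likewise not well above background in AhRCA, passed under median scaling (0.0391).

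Whether the genotype difference itself differed between the slides was asked with an interaction that left 2 residual degrees of freedom. This fit recovered none of the changes put into simulated data of the same design, so the lack of a call says nothing about the members. Of all genes tested 0.00780% passed, which is the olfactory receptor gene Olfr638, named because it was the only gene called, and 0 of 9 members. At an unadjusted p under 0.05, which 9.98% of all genes reached, there was 1 member, Hsd17b2, with -0.48 ± 0.16 (adjusted p = 0.496, limma). For Hsd11b1, which was measured on all 6 arrays, the interaction was 0.59 ± 0.44 (adjusted p = 0.646, limma). Hsd3b2, Hsd3b6 and Akr1c18 were not well above background on most AhRCA arrays, so for them the interaction cannot be read.

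Among 12820 genes with a value on every array, those whose values over the 6 arrays were most like Hsd11b1, the member measured on all arrays with the most negative difference, were Pcx, pyruvate carboxylase (Pearson r = 0.996), Ppargc1a, a coactivator of mitochondrial genes (r = 0.994), and Wscd2 (r = 0.990). Among those most like Star, the one with the most positive difference, were Tpd52 (r = 0.990) and Rsph9 (r = 0.989). With 6 arrays, which share genotype, slide and litter, such values are a description of these arrays. The genes beside the members on their chromosomes, up to 2 on each side and members left out, were chosen after the values had been seen: of 33 such genes 21 were tested and 1 passed. This was Plcg2, a phospholipase gene near Hsd17b2, at 1.79 ± 0.11 (adjusted p = 0.00164, limma, Benjamini-Hochberg). G0s2, an inhibitor of lipolysis beside Hsd11b1, stood at -1.48 ± 0.29 (0.0622), and the others lay between -0.46 and 0.66.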

How the data were processed

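The members and gene lists were chosen with earlier results of these data known. Per the labels, RNA came from RNeasy Micro columns and was Cy3-labelled; separate mice are the replicates. Per the file headers, spot intensities are from version 10.7.3.1 of Agilent Feature Extraction, background-subtracted and with spatial and multiplicative detrending fits reported; which background was subtracted is not given in the sources used here. The authors also deposited a log2 table; its differences between arrays followed those of the log2 intensities with a slope of 1.0, the 6 values of each probe had a median of 0, and the direction is that of the intensities. Its column medians were -0.0703, -0.0494 and 0.0825 in WT 1 to 3 and 0.0282, 0.0633 and -0.0704 in AhRCA 1 to 3; the scaling of each array is not given in the sources used here.

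Values were log2 processed intensity minus the 75th percentile of the array, leaving out controls and 56 to 94 outlier spots per array. The files held no symbols, so 26690 of 41174 probes were named, and 14484 were not, through unversioned RefSeq accessions of GRCm38.p6. Probes well above background on at least 3 arrays were kept, and the probe with the highest mean stood for its gene; a member's brightest probe was shown whether kept or not. Genotype, slide (with genotype) and their interaction were fitted with limma 3.58.1 in R 4.3.3 over 12824 genes (3 lacked some value), two-sided, at a Benjamini-Hochberg adjusted p of 0.05; SE of members are from the 2 groups' SD, all others from limma. On simulated data with known changes the genotype and slide fits recovered most of them and the interaction fit none.

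The rule for named genes took all members, from each list up to 4 called genes or else the 2 with the largest change, and the 3 genes most like the members with the largest rise and fall; some genes that the rule or lists hold are not reported here. Same-numbered arrays came from littermates, and their deviations from the group means correlated at 0.337, 0.372 and 0.550 in replicates 1, 2 and 3. The arrays of replicate 3 also shared slide and sex, so only slide 1 bears on the pairing. There the other pairs correlated at 0.150 and 0.194, while pairs across the slides had negative values down to -0.416. RefSeq promoter windows were cut to the 250 bases before the start, and aligned with Biopython 1.88. Alternatives covered scaling, background correction, filter, probe choice, blocks, slide 1 alone, the deposited table and each array left out. The planned normexp correction was run on the median signal with an offset of 50, chosen after seeing that the files held no mean signal.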

Additional observations from a re-analysis of the deposited data

How the results depend on the processing

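Of the members' log2 differences between AhRCA and WT none that passed the threshold changed sign under any alternative tried. Several alternatives could hardly move them: for Hsd3b2 the blocks, the mean of probes, no filter and the deposited table all left -4.98. No alternative used the other probe of Hsd3b2, at 0.47 ± 1.57. Calls of Hsd3b2, Hsd3b6 and Akr1c18 were lost as named in the report and with the filter that needs a probe measured on all 6 arrays. With that filter these genes are not tested and 0 members passed. The alternatives refit the same arrays, and the members were chosen with this comparison known, so nothing is read from calls that stayed. Leaving out 1 array gave between 2 and 4 members. The count of genes differing between AhRCA and WT was 279, with 132 without the filter on dim probes, 497 with the replicate block (litter pair), 539 with the slide as a block, 130 on slide 1 alone and between 62 (without WT replicate 2) and 195 when 1 array was left out. Besides the calls named in the report, the block changed no other call among the members and pathway lists. Pathway genes called numbered 1, with 2 (Ugt1a1 and Gata6) under median scaling, quantile normalization, normexp, that filter and the slide as a block, 1 (Gata6 in place of Ugt1a1) on slide 1 alone, 0 without the filter on dim probes, and between 0 and 2 when 1 array was left out. The 2 genes called without WT replicate 1 were Rdh16 and Ugt2b34.

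The count of genes differing between slides was 1860 (829 higher on slide 2 and 1031 lower), with 4860 (678 higher and 4182 lower) under median scaling, which moved the median of all genes from -0.07 to -0.25, with 559 (494 higher and 65 lower) without the filter, and between 37 (without WT replicate 3) and 366 when 1 array was left out. The interaction count of 1 became 0 with normexp, without the filter, with the filter on all 6 arrays and without any 1 array of slide 1, where 1 residual degree of freedom was left. Slide differences near 0 changed sign: Hsd17b2 to 0.043 under quantile normalization, Srd5a1 to -0.066 and Star to -0.037 under median scaling, Star to -0.058 under quantile normalization, and, with 1 array left out, Hsd17b2 ranged from -0.26 to 0.22 and Cyp11a1 from -0.21 to 0.15. The causes of these changes were not tested. Signals near background leave only bounds for Hsd3b2 and Hsd3b6 in AhRCA, 1 measured AhRCA array for Akr1c18 and no measured array for Hsd3b1.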
